A study of Mus musculus with 16 samples.

Results

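The receptors described here are the odorant receptor genes of mouse chromosome 17, taken as the probe sets whose identifier places them on that chromosome and whose single gene symbol is Olfr followed by a number, without pseudogenes, with 1 probe set per gene. The rule gave 49 genes, of 1080 odorant receptors and 19505 genes on the array, and it used no measured difference. All 49 were found by gene ID in RefSeq, which lists 51 protein-coding odorant receptor genes on that chromosome. In RefSeq order they form 2 blocks. Olfr55, Olfr239, Olfr1564 and Olfr63 lie by themselves, and 177 other protein-coding genes separate them from the second block of 45 genes, from Olfr90 to Olfr136. The second block adjoins the major histocompatibility complex (MHC), the region of antigen-presenting molecules: Gabbr1, Mog, Zfp57 and H2-M5 lie beside it, and Ubd, H2-M3 and H2-M2 lie within it. The name "MHC-linked" therefore holds for 45 of the 49 genes.

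The study is a Kentucky assay, which sorts cells of the olfactory mucosa by a reporter of neuronal activity to find the receptors that respond to an odor. C57BL/6 mice carrying S100a5-tauGFP, a green fluorescent protein (GFP) reporter named for the gene S100a5, were used in both treatments; they were 24 animals of both sexes aged 7 to 12 weeks, each kept for 40 h in its own chamber under clean air flowing at 3.1 L per min. From 26 h on, 10 s pulses every 20 min delivered either filtered air, the vehicle, or whiskey lactone mixed with isoamyl acetate. The dissociated cells of 3 mice were pooled and sorted by fluorescence, which gave 4 pools per treatment. Each pool yielded 2 libraries, one titled GFP+ and the other GFP-, or 16 Affymetrix arrays in 4 groups of 4. The 4 groups were odor titled GFP+, odor titled GFP-, vehicle titled GFP+ and vehicle titled GFP-. A pool averages 3 animals, so differences between single mice were not measured.

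Odorant receptors are G protein-coupled receptors in the cilia of olfactory sensory neurons. A mature neuron as a rule expresses a single receptor gene from a single allele, so that the abundance of a receptor transcript in sorted tissue follows the number of neurons that chose it and the amount each contains. Receptor binding activates an olfactory G protein, adenylyl cyclase and a cyclic nucleotide-gated channel. Genes such as S100a5, which encodes a calcium-binding protein, are induced by that activity. Receptor choice depends on enhancers and promoters bound by the homeodomain protein LHX2 and by EBF proteins. A cluster of odorant receptors at the edge of the MHC is present in mouse and human. The roles given below are those of the family; ligands of single members are not given.

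Since receptor promoters are where those factors bind, the start regions of 6 members are shown, with matches to TAATTA, a homeodomain core, or CCCNNGGG, an EBF core, in capitals where present. The windows hold 250 bases before and 50 bases after the start of the RefSeq transcript (GRCm38.p6), written on the gene's own strand. They belong to the 4 members with the largest odor fraction differences that had a window (Olfr99 at chr17:37280369-37280668, minus strand, Olfr110 at chr17:37492218-37492517, plus strand, Olfr101 at chr17:37300435-37300734, minus strand, and Olfr127 at chr17:37903298-37903597, plus strand) and to the neighbours Olfr124 (chr17:37804819-37805118) and Olfr125 (chr17:37834661-37834960), both on the plus strand and both lower in the fraction titled GFP+.
Olfr99: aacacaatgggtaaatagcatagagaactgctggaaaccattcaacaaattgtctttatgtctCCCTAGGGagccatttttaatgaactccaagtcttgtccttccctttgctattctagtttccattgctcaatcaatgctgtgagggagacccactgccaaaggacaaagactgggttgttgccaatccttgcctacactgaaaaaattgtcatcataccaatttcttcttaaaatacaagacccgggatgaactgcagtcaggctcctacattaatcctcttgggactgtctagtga
Olfr110: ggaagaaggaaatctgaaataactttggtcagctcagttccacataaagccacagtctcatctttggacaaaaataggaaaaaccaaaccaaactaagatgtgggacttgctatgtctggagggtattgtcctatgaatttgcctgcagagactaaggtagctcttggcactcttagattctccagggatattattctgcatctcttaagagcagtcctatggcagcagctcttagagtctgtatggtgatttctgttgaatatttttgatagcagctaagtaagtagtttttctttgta
Olfr101: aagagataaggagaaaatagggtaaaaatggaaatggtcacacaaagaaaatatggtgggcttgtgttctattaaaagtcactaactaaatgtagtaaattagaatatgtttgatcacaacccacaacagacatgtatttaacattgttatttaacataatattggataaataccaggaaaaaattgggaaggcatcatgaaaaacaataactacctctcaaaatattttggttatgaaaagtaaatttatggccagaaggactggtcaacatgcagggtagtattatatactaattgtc
Olfr127: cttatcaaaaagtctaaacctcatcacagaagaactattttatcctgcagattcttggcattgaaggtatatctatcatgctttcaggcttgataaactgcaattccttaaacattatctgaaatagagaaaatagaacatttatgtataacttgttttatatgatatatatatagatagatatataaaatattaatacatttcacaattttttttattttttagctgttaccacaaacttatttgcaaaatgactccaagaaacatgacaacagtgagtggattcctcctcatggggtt
Olfr124: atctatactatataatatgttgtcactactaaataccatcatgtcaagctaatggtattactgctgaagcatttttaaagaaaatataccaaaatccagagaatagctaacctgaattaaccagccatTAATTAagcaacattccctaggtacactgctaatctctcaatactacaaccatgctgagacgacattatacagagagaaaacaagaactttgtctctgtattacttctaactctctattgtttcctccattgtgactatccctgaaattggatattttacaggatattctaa
Olfr125: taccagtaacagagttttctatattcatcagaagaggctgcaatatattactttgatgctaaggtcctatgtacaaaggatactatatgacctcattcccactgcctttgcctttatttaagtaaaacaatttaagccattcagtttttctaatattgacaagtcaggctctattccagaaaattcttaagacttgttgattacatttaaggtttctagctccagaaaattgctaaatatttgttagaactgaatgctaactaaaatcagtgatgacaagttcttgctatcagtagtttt

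In the window of Olfr99 the match CCCTAGGG begins 187 bases before the start, and in that of Olfr124 the match TAATTA begins 122 bases before it. The other 4 windows held neither motif on either strand. For Olfr99 and Olfr127 the RefSeq transcript begins at the start codon, so these windows may lie downstream of the true start of transcription. The same was so for 23 of the 35 members that had a window. TAATTA was found in 4 of the 35 member windows (11.4%), in 18.6% of the 944 odorant receptor windows and in 5.29% of all 32851 windows of this length. CCCNNGGG was found in 5 of the 35 (14.3%), in 3.07% of the odorant receptor windows and in 13.7% of all windows. Both motifs are palindromic and do not overlap each other, and each window was counted once. The 4 member windows with TAATTA were those of Olfr123, Olfr124, Olfr132 and Olfr134, and the 5 with CCCNNGGG those of Olfr93, Olfr96, Olfr98, Olfr99 and Olfr108. They include members higher, members lower and members not called between the fractions below.

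The labels do not settle which fraction is which. Titles and cell type tags contradict each other on every one of the 16 samples; the groups here follow the titles, and under the tags each fraction difference would have the other sign. S100a5 itself, on the deposited log2 scale, had values of 16.04, 16.66, 16.55 and 16.48 in odor pools 1 to 4 titled GFP-, and 15.39, 15.11, 15.05 and 15.55 in the same pools titled GFP+. It was thus lower in each odor library titled GFP+, against the titles, with a difference of -1.16 ± 0.20 (limma SE; adjusted p = 0.000588 on 14 arrays without vehicle pool 3 and 0.0625 on all 16). The vehicle pools gave 16.44, 16.35, 14.99 and 16.27 when titled GFP- and 14.59, 14.91, 16.37 and 15.47 when titled GFP+, with pool 3 alone turned the other way. Pool 3 of vehicle stood apart from the other 7 pools in the receptors as well. Each result below therefore comes from 2 fits, of the 16 arrays under their titles and of the 14 that remain once pool 3 of vehicle is dropped. Omp, which marks mature olfactory sensory neurons, was between 18.4 and 18.7 in every library. Library medians lay between 6.13 and 6.45.

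**Figure D1:**
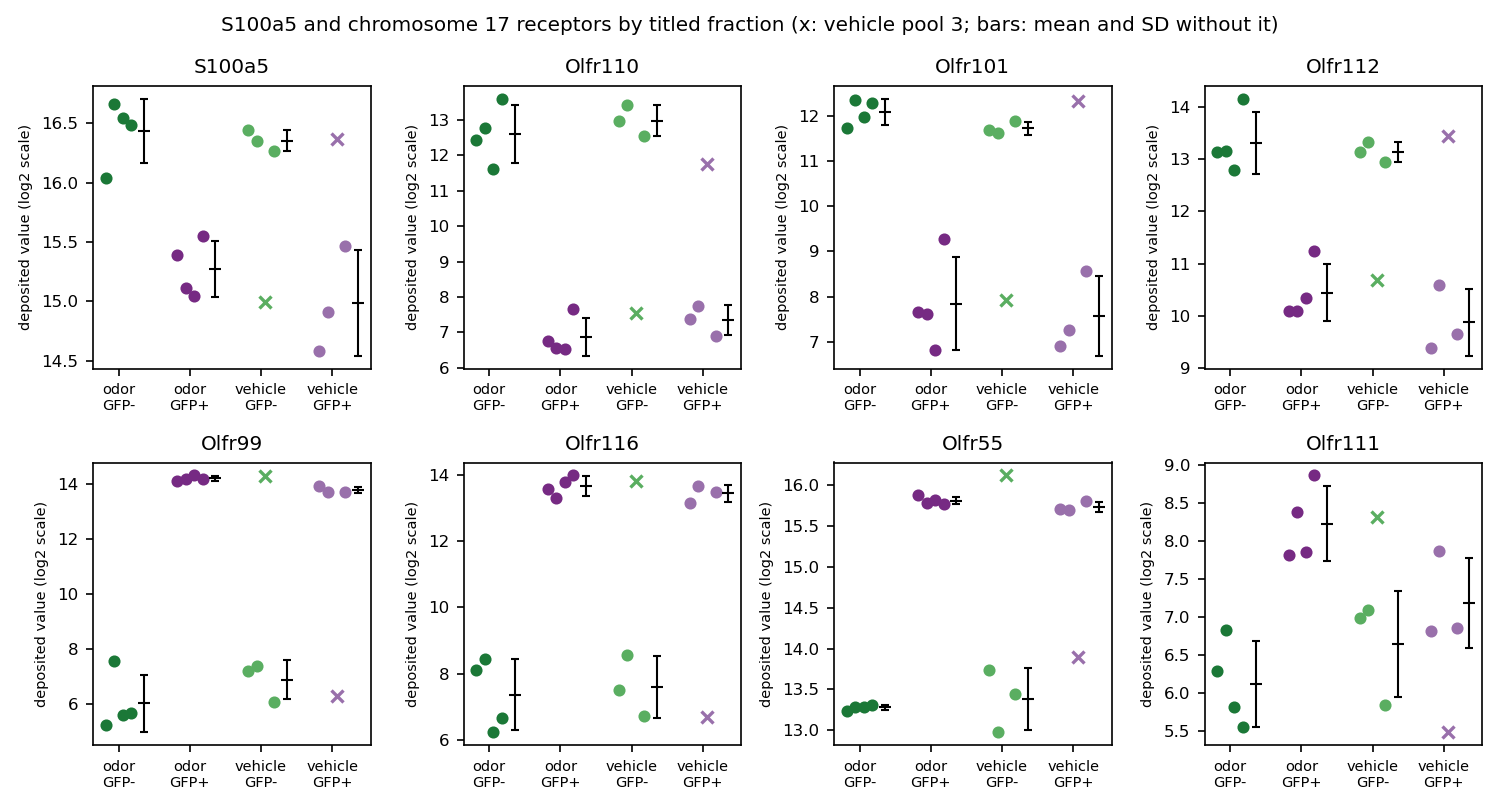
Deposited log2 values of S100a5 and 7 chromosome 17 receptors in each library, by treatment and titled fraction; crosses are the 2 libraries of vehicle pool 3, and bars give the mean and SD without that pool. In each panel except that of Olfr111 the fractions lie apart in both treatments once pool 3 is set aside, and pool 3 lies at or near the level of the opposite fraction.

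The mean of a member over the 16 arrays ran from 4.63 for Olfr108 to 14.6 for Olfr55, with a median of 9.26, beside 8.72 for all odorant receptors and 6.90 for all genes. The 5222 negative control probe sets spread widely on this scale: their median was 5.46, and 9.79 was the 95th percentile of their values. By their means, 2 members, Olfr108 and Olfr761, lay below that median and 28 of the 49 below that percentile, within the range of the negative controls. After Olfr55, the highest means were those of Olfr239 (13.3), Olfr131 (12.3), Olfr112 (11.8) and Olfr95 (11.7). After Olfr108, the lowest were those of Olfr761 (4.98), Olfr128 (5.64), Olfr118 (6.49) and Olfr92 (6.63). Probe sets differ in how strongly they bind their targets, so these values do not order the genes by abundance.

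The receptors of chromosome 17 differed between the sorted fractions in both directions. In odor mice 31 of the 49 were called on the 14 arrays (adjusted p under 0.05 by limma, with Benjamini-Hochberg adjustment over all 19505 genes), 19 higher and 12 lower in the fraction titled GFP+, beside 13.2% of all genes (8.59% higher, 4.59% lower). In vehicle mice 26 were called on the 14 arrays, 15 higher and 11 lower, beside 11.2% of all genes (7.86% higher, 3.32% lower). Among all 1080 odorant receptors 60.4% were called in odor and 53.2% in vehicle, so the members' shares of 63.3% and 53.1% lay close to those of the whole family. Without the second vehicle library titled GFP- the vehicle count fell to 17. The family as a whole split into 289 higher and 363 lower in odor. For 23 of the 31 members called in odor, and 23 of the 26 called in vehicle, the mean of the lower fraction was below the 95th percentile of the negative controls. For 16 and 13 of them the means of both fractions were. The lower mean was below the negative control median for 3 of the 31 and 2 of the 26. In members within the range of the negative controls, background may limit the lower level and the size of the difference, which was not tested. A fraction with fewer neurons of one receptor and a fraction whose neurons contain less of its RNA cannot be told apart in these sorted bulk samples.

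Over all 16 arrays as labelled, 20 members were called in odor (12 higher and 8 lower, beside 6.97% of all genes, 4.57% higher and 2.39% lower), and none with the pool of mice as a block. In vehicle none was called on the 16 arrays by limma, nor was any other gene (0.0%); 8 members and 1912 genes had an unadjusted p under 0.05. Leaving out any 1 odor library other than the fourth titled GFP+ (17 members without it) also left 0 members called in odor on the 16 arrays, and leaving out the third vehicle library titled GFP+ or GFP- gave 10 or 1 in vehicle. The odor difference itself is the same in both fits, because it rests on the same 8 odor arrays; leaving out vehicle pool 3 changed its error. Centring each array on its median gave 12 higher and 15 lower in odor on the 16 arrays and 13 higher and 15 lower in vehicle on the 14. The shares of all genes called after centring are not given here. That scaling moved the median fraction difference of all genes from -0.08 to -0.43 in odor, and from -0.10 to -0.46 in vehicle on the 14 arrays. It turned the direction of none of the 31 odor calls and none of the 26 vehicle calls of the 14 arrays.

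Olfr99 and Olfr116, both of the MHC block, had the largest positive differences. Olfr99 was at 5.26, 7.57, 5.60 and 5.69 in the 4 odor libraries titled GFP- and at 14.12, 14.20, 14.32 and 14.20 in those titled GFP+. In vehicle the pools gave 7.22, 7.38, 14.31 and 6.09 under the title GFP- and 13.93, 13.73, 6.30 and 13.71 under the title GFP+. The odor groups lay far apart without overlap, and in vehicle only the third library of each group broke the pattern. Its lower level lies within the range of the negative controls, near their median of 5.46, so background may limit the size of its difference. The difference, titled GFP+ minus titled GFP-, was 8.18 ± 0.39 (limma SE) in odor, with an adjusted p of 1.75e-09 on the 14 arrays and 0.0286 on the 16. In vehicle it was 6.89 ± 0.46 on the 14 arrays (adjusted p = 8.86e-08) and 3.17 ± 1.70 on the 16 (adjusted p = 0.566). These are differences between values of one probe set on the deposited log2 scale, whose range of 1.69 to 19.4 exceeds that of a 16-bit scanner, and they are not read as folds.

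Olfr116 showed the same order. It was at 8.11, 8.43, 6.23 and 6.66 in the odor libraries titled GFP- and at 13.57, 13.30, 13.79 and 13.99 in those titled GFP+. In vehicle the pools gave 7.50, 8.58, 13.81 and 6.73 under the title GFP- and 13.16, 13.67, 6.70 and 13.49 under the title GFP+. Again the odor groups did not overlap, and the third vehicle library of each fraction took the level of the other fraction. The difference was 6.30 ± 0.45 in odor (adjusted p = 8.52e-08) and 5.84 ± 0.52 in vehicle (adjusted p = 1.39e-06) on the 14 arrays. Its neighbour Olfr117 was also higher, by 2.92 ± 0.31 in odor and 2.99 ± 0.35 in vehicle.

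Olfr126 and Olfr127 were higher as well and lie side by side. Olfr126 was at 4.98, 6.62, 5.85 and 5.08 in the odor libraries titled GFP- and at 9.41, 9.48, 9.11 and 9.58 in those titled GFP+. Olfr127 was at 4.88, 5.77, 4.97 and 4.19 and at 8.82, 7.78, 8.78 and 8.81 in the same 2 groups. Neither receptor's odor groups overlapped, although all 16 of these values lay below the 95th percentile of the negative controls, and the mean of Olfr127 under the title GFP- was below their median. Differences were 3.77 ± 0.31 in odor and 3.42 ± 0.35 in vehicle for Olfr126, both on the 14 arrays. For Olfr127, whose window is among those printed above, they were 3.60 ± 0.33 and 3.63 ± 0.38. All 4 had adjusted p-values between 3.97e-07 and 7.77e-06.

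Olfr114 and Olfr134 changed by sizes near that of Olfr117. Olfr114 was at 5.53, 6.09, 6.22 and 5.20 in the odor libraries titled GFP- and at 9.02, 8.49, 8.18 and 9.10 in those titled GFP+, a difference of 2.94 ± 0.39 (adjusted p = 6.23e-05). Olfr134 was at 5.44, 5.68, 6.48 and 5.86 and at 8.05, 8.48, 9.57 and 9.04, a difference of 2.92 ± 0.34 (adjusted p = 1.73e-05). Both were separate between the odor groups. Vehicle gave 3.23 ± 0.45 for Olfr114 and 2.34 ± 0.39 for Olfr134 on the 14 arrays, both called.

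Olfr55, from the small block away from the MHC, had closely spaced replicates. It was at 13.24, 13.28, 13.28 and 13.31 in the odor libraries titled GFP- and at 15.87, 15.78, 15.82 and 15.77 in those titled GFP+. The SDs of the 2 groups were 0.030 and 0.048 (n = 4 each), so the gap between them was many times the spread. The odor difference was 2.53 ± 0.15 (adjusted p = 1.21e-08), the second smallest adjusted p of the 49 after that of Olfr99. In vehicle it was 2.34 ± 0.17 on the 14 arrays (adjusted p = 1.86e-07). Of its 3 block neighbours, Olfr63 was higher by 1.44 ± 0.31 in odor and 2.03 ± 0.36 in vehicle, and Olfr239 by 0.62 ± 0.19 and 0.78 ± 0.22, all called on the 14 arrays. The call of Olfr239 was lost with the pool as a block (adjusted p = 0.0896 in odor and 0.0699 in vehicle). Olfr1564 differed by 0.76 ± 0.32 in odor (adjusted p = 0.159) and 1.10 ± 0.37 in vehicle (adjusted p = 0.0786), and was not called in either. With the block it was called in vehicle (SE 0.28, adjusted p = 0.0287) and not in odor (adjusted p = 0.0683).

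Olfr110, Olfr101 and Olfr112 had the largest negative differences. Olfr110 was at 12.44, 12.78, 11.61 and 13.60 in the odor libraries titled GFP- and at 6.75, 6.56, 6.53 and 7.66 in those titled GFP+. In vehicle the pools gave 12.97, 13.43, 7.55 and 12.54 under the title GFP- and 7.39, 7.74, 11.75 and 6.89 under the title GFP+. The groups did not overlap in odor, nor in vehicle without pool 3. Its difference was -5.73 ± 0.37 in odor (adjusted p = 2.98e-08) and -5.64 ± 0.42 in vehicle on the 14 arrays (adjusted p = 2.39e-07).

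Olfr101, the next measured receptor after Olfr99, ran the other way. It was at 11.72, 12.35, 11.98 and 12.28 in the odor libraries titled GFP- and at 7.66, 7.61, 6.82 and 9.27 in those titled GFP+. All 4 libraries titled GFP- exceeded all 4 titled GFP+, among which the fourth was highest. The difference was -4.24 ± 0.42 in odor and -4.16 ± 0.49 in vehicle on the 14 arrays, with adjusted p-values of 3.36e-06 and 2.41e-05.

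Olfr112 was at 13.13, 13.15, 12.79 and 14.15 in the odor libraries titled GFP- and at 10.091, 10.098, 10.335 and 11.243 in those titled GFP+. Its groups were also separate, and the fourth library was the highest in each. The difference was -2.86 ± 0.32 in odor (adjusted p = 1.27e-05) and -3.26 ± 0.38 in vehicle on the 14 arrays (adjusted p = 1.97e-05).

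The remaining calls were smaller. Olfr125 and Olfr124 were lower in odor, at -2.43 ± 0.34 and -2.03 ± 0.31; in vehicle Olfr125 was called at -1.79 ± 0.39, while Olfr124 was at -1.09 ± 0.35 with an adjusted p of 0.0645. Olfr90 differed by -2.19 ± 0.36 in odor and Olfr138 by -1.72 ± 0.28, both called in both treatments. Olfr128, one of the dimmest probe sets, was called in both, with 1.36 ± 0.18 in odor and 1.66 ± 0.21 in vehicle. Olfr111 at 2.11 ± 0.35 and Olfr137 at 1.90 ± 0.33 were the other members called higher in odor with a difference near or above 2. At the threshold on the 14 arrays in odor, Olfr239 and Olfr109 were the last inside (adjusted p = 0.0422 and 0.0444), and Olfr131 and Olfr103 the first outside (0.0565 and 0.068).

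**Figure D2:**
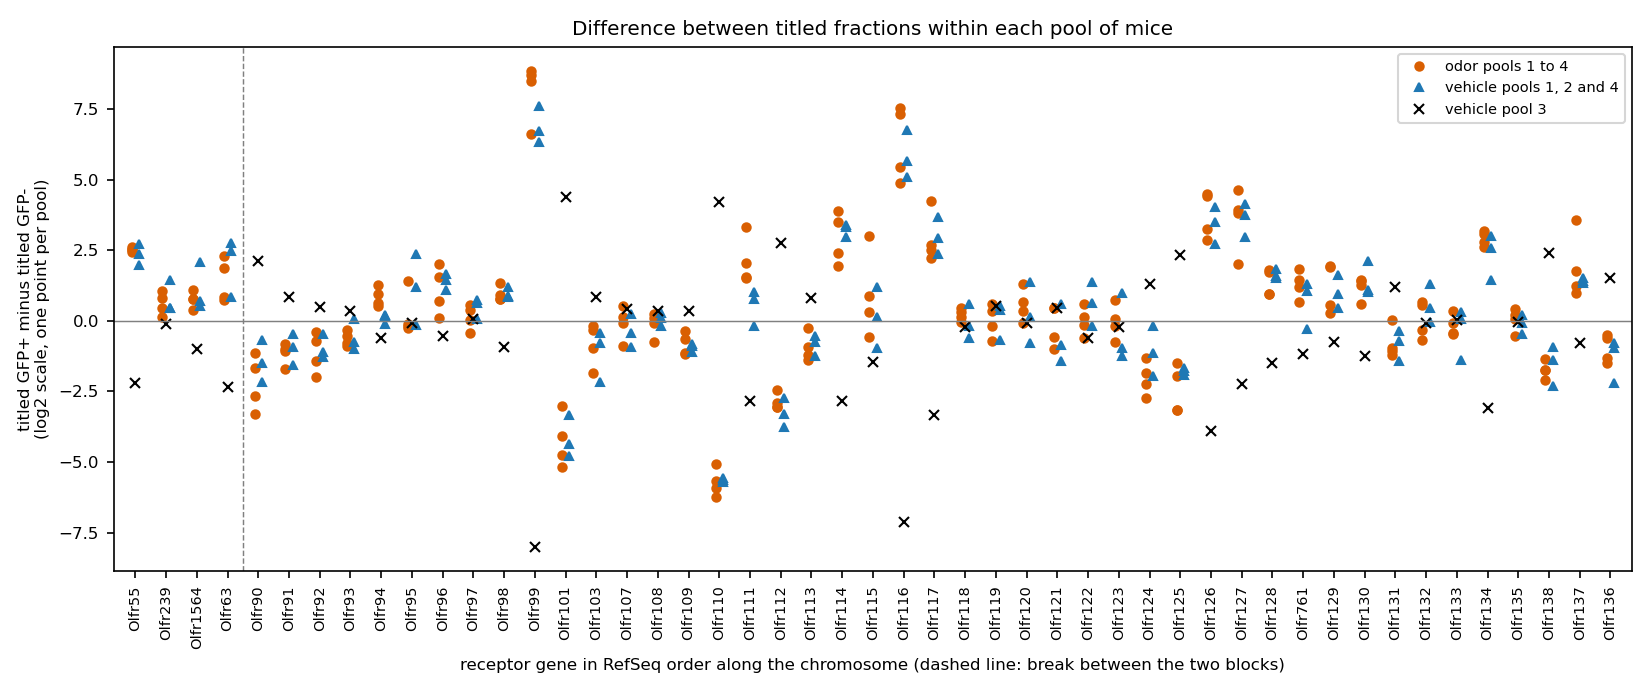
Difference between the fractions titled GFP+ and GFP- within each pool of mice for the 49 receptors, in RefSeq order along the chromosome, on the deposited log2 scale. Odor pools and vehicle pools 1, 2 and 4 fall together at most genes, while vehicle pool 3 mirrors them at the genes with large differences, reaching 4.20 for Olfr110 and -8.01 for Olfr99.

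Most receptors called in one treatment were called in the other. On the 14 arrays 25 members were called in both treatments, which is 80.6% of the 31 called in odor and 96.2% of the 26 called in vehicle, and all 25 had the same direction (15 higher, 10 lower). The 2 sets of arrays do not share a library, but they share the estimate of the spread. The overlap over all genes or all odorant receptors is not given here, so these percentages are not read as particular to the members. The 31 members called in odor were called on the 4 odor pools, so agreement of those pools is nearly fixed in advance. All 4 had the sign of the mean for each of the 31. Vehicle pools 1, 2 and 4 all had that sign for 28 of the 31, the exceptions being Olfr94, Olfr111 and Olfr761. Vehicle pool 3 had the opposite sign for all 31. The shares of all genes with such signs are not given here. In odor the 4 libraries of one fraction did not overlap the 4 of the other for 27 members (55.1%), beside 59.3% of all odorant receptors and 16.5% of all genes. Called without such a separation were Olfr96, Olfr98, Olfr109, Olfr130 and Olfr136.

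The 6 members called in odor alone were Olfr94, Olfr109, Olfr111, Olfr124, Olfr761 and Olfr129, and the 1 called in vehicle alone was Olfr103, at -1.13 ± 0.32. With the pool of mice as a block Olfr103 and Olfr92 were no longer called in vehicle (adjusted p = 0.0894 and 0.0664), and Olfr131 was called in odor (adjusted p = 0.0490). The block also brought Olfr109 past the threshold in vehicle, at -0.93 ± 0.19 (adjusted p = 0.0102), so that it was called in both treatments, and Olfr1564 in vehicle, as given above. With both calls of Olfr239, the block changed 7 calls of 6 members, 4 lost and 3 gained. The split between treatments does not show a difference between treatments, which was tested separately below and not called for any member. The 17 members called in neither treatment were Olfr1564, Olfr93, Olfr95, Olfr97, Olfr107, Olfr108, Olfr115, Olfr118, Olfr119, Olfr120, Olfr121, Olfr122, Olfr123, Olfr131, Olfr132, Olfr133 and Olfr135. Their odor differences ran from -0.80 (Olfr131) to 0.91 (Olfr115). The signal of these genes was not always low: Olfr131 was at 12.04, 12.77, 12.47 and 13.33 in the odor libraries titled GFP- and at 12.06, 11.70, 11.50 and 12.14 in those titled GFP+.

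**Figure D3:**
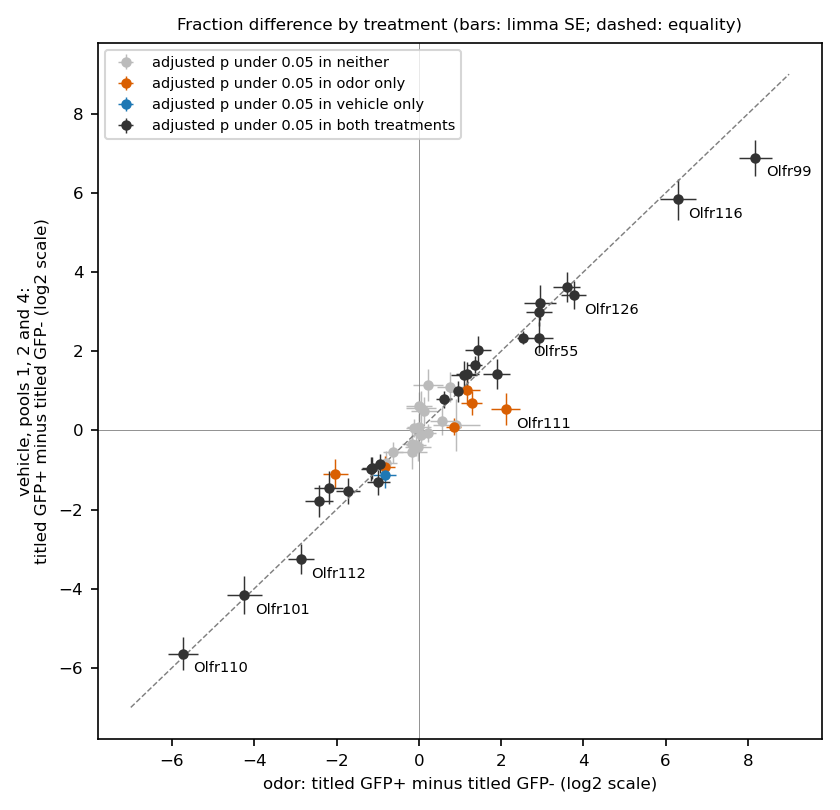
Fraction difference (titled GFP+ minus titled GFP-, deposited log2 scale) of each of the 49 receptors in odor against that in vehicle without pool 3, with limma standard errors as bars; colors mark where the adjusted p was under 0.05. The points with large differences lie near the line of equality, from Olfr110 at -5.73 and -5.64 to Olfr99 at 8.18 and 6.89.

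The sizes were near those of the receptor family. The median absolute difference in odor was 1.10 for the members, 1.36 for all odorant receptors and 0.213 for all genes. A difference above 2 in either direction was found in 15 members (30.6%), 33.9% of odorant receptors and 4.16% of genes. Above 4 there were 4 members (8.16%), 10.9% of odorant receptors and 1.19% of genes. The median signed difference was 0.14 for the members, -0.22 for all odorant receptors and -0.08 for all genes.

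Receptors next to each other on the chromosome differed in direction in several places. In the stretch Olfr110 to Olfr114, with odor differences on the same 14-array fit, Olfr110 was at -5.73, Olfr111 at 2.11, Olfr112 at -2.86, Olfr113 at -0.94 and Olfr114 at 2.94, and all 5 were called. Direction thus changed 3 times over 5 consecutive genes. Olfr99 (8.18) and Olfr101 (-4.24) are likewise next to each other among the measured receptors. The neighbours Olfr124 (-2.03) and Olfr125 (-2.43) were lower, and Olfr126 (3.77), the next gene, was higher.

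Some runs did share a direction. The 6 genes Olfr126, Olfr127, Olfr128, Olfr761, Olfr129 and Olfr130 were all called higher in odor, with the last 4 at 1.36, 1.28, 1.18 and 1.18. Olfr90, Olfr91 and Olfr92, the first 3 of the MHC block, were all called lower, at -2.19, -1.15 and -1.13. From Olfr118 to Olfr123, 6 consecutive genes were not called in either treatment. Block by block on the 14 arrays, 3 of the 4 genes away from the MHC were called higher in odor and none lower. The 3 include Olfr239, whose call was lost with the pool as a block. Of the 45 beside the MHC 16 were called higher and 12 lower. Over all genes 8.59% were called higher and 4.59% lower, and 60.4% of all odorant receptors were called. On the 16 arrays 1 of the 4 and 11 of the 45 were called higher, and 0 and 8 lower. The runs were picked after the values were seen, and neither they nor the blocks carry a test.

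None of the 49 receptors passed the test for odor against vehicle. On the 14 arrays none was called for odor against vehicle in the fraction titled GFP+ (0.0359% of all genes were), in the fraction titled GFP- (0.0256%) or in the mean of both fractions (0.641%), a comparison that does not depend on which fraction is which. Among all 1080 odorant receptors the shares called were 0.0%, 0.185% and 0.278% in the same order, so the members lay near the family. On the 16 arrays no member was called either, beside 0.0%, 0.0103% and 0.0308% of all genes and 0.0% of all odorant receptors in each. Members with an unadjusted p under 0.05 by limma numbered 2, 2 and 3 on the 14 arrays and 2, 2 and 1 on the 16. The median difference of the members in the mean of both fractions was 0.11 on the 14 arrays, beside 0.02 for all odorant receptors and -0.01 for all genes. The median standard error of a member's difference within a fraction was 0.33 on the 14 arrays. Differences well above it also went uncalled, such as 1.05 for Olfr111 in the fraction titled GFP+. Changes of that size could therefore go undetected.

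The member with the smallest p in the mean of both fractions was Olfr135. In the fraction titled GFP+ it was at 7.15, 7.76, 7.83 and 7.80 in odor and 6.64, 6.94, 7.42 and 7.51 in vehicle. In the fraction titled GFP- it was at 7.69, 7.54, 7.77 and 7.38 in odor and 7.11, 7.00, 7.47 and 7.31 in vehicle. The odor and vehicle libraries overlapped in both fractions over all 16 arrays. Without vehicle pool 3 they overlapped in the fraction titled GFP+ alone. In the fraction titled GFP- the lowest odor value, 7.38, then lay just above the highest vehicle value, 7.31. The mean difference, odor minus vehicle, was 0.53 ± 0.15 on the 14 arrays (adjusted p = 0.141) and 0.44 ± 0.14 on the 16 (adjusted p = 0.372). In the fraction titled GFP+ alone it was 0.61 ± 0.22 (adjusted p = 0.502).

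The next by p in the mean of both fractions were Olfr130 at 0.50 ± 0.21, Olfr133 at 0.44 ± 0.19, Olfr95 at 0.54 ± 0.27 and Olfr108 at 0.23 ± 0.15, with adjusted p-values from 0.351 to 0.589. Within the fraction titled GFP+, Olfr111, Olfr133, Olfr90 and Olfr134 followed Olfr135. Olfr111 had the largest difference there, 1.05 ± 0.38 (adjusted p = 0.514); those of the other 3 were 0.53, -0.72 and 0.65. Within the fraction titled GFP-, Olfr94 came first with -0.58 ± 0.20 (adjusted p = 0.464), before Olfr95 with 1.00 ± 0.39 (adjusted p = 0.543). None of these passed the threshold.

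**Figure D4:**
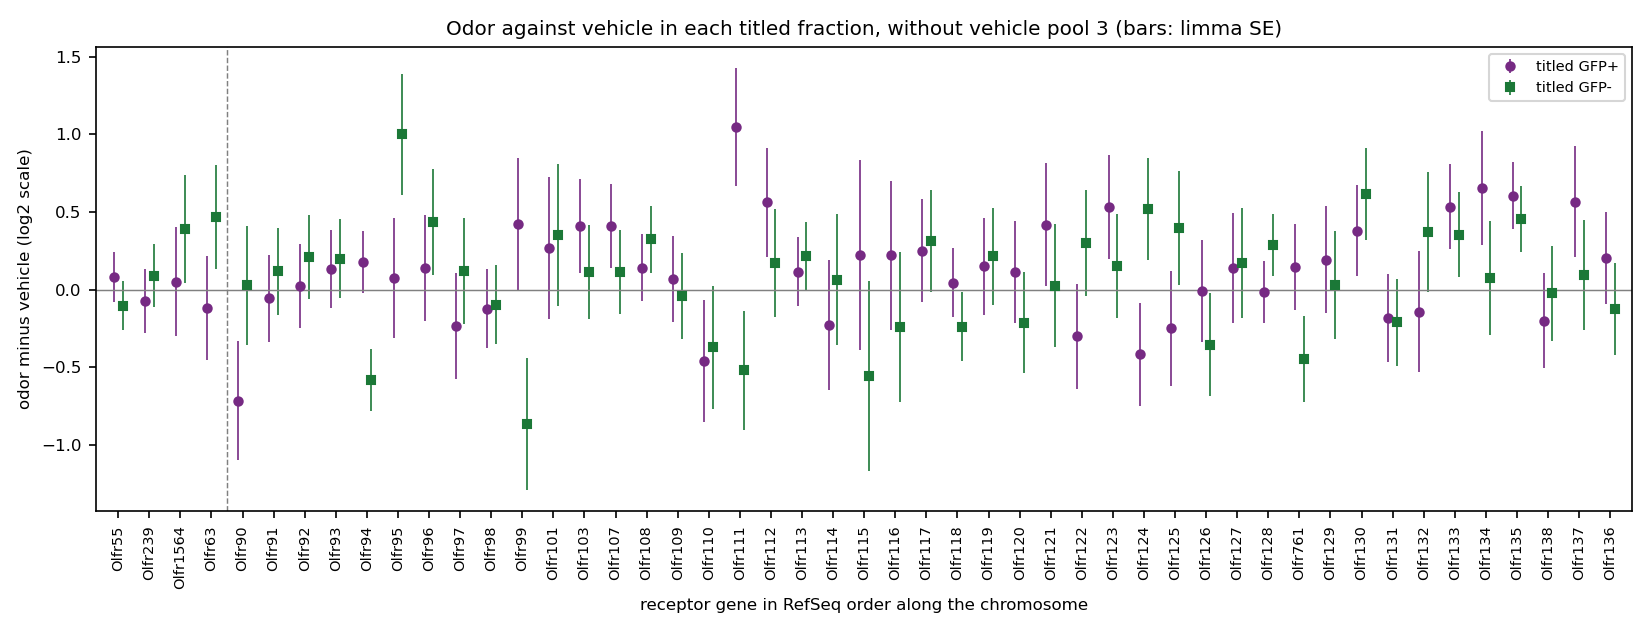
Odor minus vehicle for each of the 49 receptors in the fraction titled GFP+ (circles) and the fraction titled GFP- (squares), without vehicle pool 3, on the deposited log2 scale with limma standard errors as bars. Differences run from -0.72 (Olfr90) to 1.05 (Olfr111) in the fraction titled GFP+ and from -0.87 (Olfr99) to 1.00 (Olfr95) in the other, and none was called.

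The readout of the assay is the difference of the fraction differences, odor minus vehicle, which asks whether the odor moved a receptor between the sorted fractions. No member was called on the 14 arrays (0.0103% of all genes and 0.185% of all odorant receptors were) or on the 16 (0.00513% and 0.0926%). On the 14 and the 16 arrays, 3 and 5 members had an unadjusted p under 0.05 by limma. Olfr111 had the smallest p on the 14 arrays. It was at 6.29, 6.83, 5.81 and 5.55 in the odor libraries titled GFP- and at 7.81, 8.38, 7.86 and 8.87 in those titled GFP+. In vehicle the pools gave 6.99, 7.09, 8.32 and 5.83 under the title GFP- and 6.82, 7.87, 5.48 and 6.86 under the title GFP+. The odor fractions were separate, and the vehicle fractions overlapped with or without pool 3. The difference of the fraction differences was 1.57 ± 0.54 on the 14 arrays, with an unadjusted p of 0.0109 and an adjusted p of 1.00.

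Olfr94 came next, with 0.76 ± 0.28 on the 14 arrays, and then Olfr99 with 1.29 ± 0.60, Olfr124 with -0.94 ± 0.47 and Olfr95 with -0.92 ± 0.55. All adjusted p-values of the members were 1.00 on the 14 arrays. With vehicle pool 3 included, the value of Olfr99 was 5.01 ± 2.40, more than 3 times that without it, and its adjusted p was 0.999. The values of Olfr111 and Olfr94 on the 16 arrays were 2.41 ± 0.72 and 0.93 ± 0.27.

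Among other genes of the receptor pathway, those called between the fractions were genes of olfactory transduction. Of 17 genes of receptor choice, trafficking and feedback, such as Lhx2 and Rtp1, none was called by limma in odor or vehicle on the 14 arrays and 2 had an unadjusted p under 0.05 in each, with a median difference of -0.05 in odor. Of 15 measured genes of olfactory transduction 1 was called higher and 3 lower in odor, and 1 higher and 2 lower in vehicle, beside 13.2% and 11.2% of all genes called in odor and vehicle. In odor Grk3, a receptor kinase, was at 0.61 ± 0.18, Ano2, a chloride channel, at -0.51 ± 0.12, Pde1c, a phosphodiesterase, at -0.69 ± 0.14 and Slc24a4, a sodium-calcium exchanger, at -0.56 ± 0.14. None of 6 measured markers of the zones of the olfactory epithelium was called in either treatment by limma, with 2 in odor and 1 in vehicle at an unadjusted p under 0.05. The median difference of all genes in odor was -0.08.

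Genes of the MHC region that lie near the receptors were counted in the same fits. The mean level of the 23 measured was 5.14 to 5.42 per odor library and 5.17 to 5.40 per vehicle library. These levels lie below the negative control median of 5.46, so a lack of calls among these genes says little. Of 23 measured neighbours none was called in odor by limma, beside 13.2% of all genes, and 4 had an unadjusted p under 0.05. In vehicle 2 were called, beside 11.2% of all genes: H2-M3, which lies between Olfr98 and Olfr99, was higher by 1.56 ± 0.30 and H2-M5 was at -0.90 ± 0.23. H2-M3 is a nonclassical MHC class I molecule. In odor its difference was 0.70 ± 0.26 with an adjusted p of 0.105, beside 8.18 for Olfr99. Against vehicle, 1 of the 23, Trim15, was called in the mean of both fractions on the 14 arrays (0.641% of all genes were), at -0.96 ± 0.17.

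Activity-dependent genes and markers of other cell types moved with the fractions. Of 8 activity-dependent genes, S100a5 included, 6 were called lower in the fraction titled GFP+ and 0 higher in odor on the 14 arrays, with a median of -1.05, and the counts were the same in vehicle. Markers of neutrophils and myeloid cells were higher there in 9 of 9 measured, with a median difference of 8.17; their mean level per odor library was 4.83 to 6.57 in the fraction titled GFP- and 11.3 to 14.2 in that titled GFP+. Lymphoid markers were higher in 5 of 5, microvillar and ionocyte-like markers in 5 of 5, sustentacular markers in 5 of 6, globose basal and progenitor markers in 4 of 4, immature neuron markers in 3 of 6 and vomeronasal neuron markers in 1 of 2, Gnai2. Mean levels per odor library, titled GFP- and then titled GFP+, were 4.25 to 4.57 and 5.91 to 8.004 for lymphoid, 5.49 to 6.01 and 8.41 to 9.92 for microvillar, 7.02 to 8.27 and 9.28 to 10.75 for sustentacular, 4.37 to 5.24 and 6.61 to 7.87 for globose basal, 10.93 to 11.07 and 12.70 to 13.13 for immature neuron and 11.78 to 12.27 and 13.60 to 14.47 for vomeronasal markers, so none of these ranges overlapped. The vomeronasal levels average 2 genes, of which Gnai2 alone had an unadjusted p under 0.05 by limma. Of 10 mature neuron markers none was higher and 1, Ano2, was lower. The mean level of these 10 was 16.13 to 16.37 in the odor libraries titled GFP- and 16.05 to 16.19 in those titled GFP+. In vehicle pool 3 the myeloid markers were turned as well, with mean levels of 11.9 in the library titled GFP- and 4.78 in that titled GFP+. The part of these cells in the receptor differences was not tested.

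Against vehicle, odor raised 3 of the 8 activity-dependent genes in the mean of both fractions on the 14 arrays, namely Pcdh10 (2.38 ± 0.22), Lrrc3b (1.27 ± 0.15) and Kirrel2 (1.22 ± 0.20). None of the 49 receptors was called in the same fit, beside 0.278% of all odorant receptors and 0.641% of all genes. On the 16 arrays 1 of the 8 was called.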

How the data were processed

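Affymetrix arrays measured 16 libraries of sorted olfactory mucosa cells. The authors deposited 1 table of log2-scale values for 28846 probe sets, and the submitters' processing notes name Affymetrix Expression Console. Version, summarization and genome build were not given in the sources used here. Symbols came from the platform annotation, and 19505 genes had 1 probe set each, the one with the highest mean over 16 arrays. RefSeq (GRCm38.p6) served for gene order and promoter windows. Protein subfamilies, which the plan named, were not analysed here.

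Groups followed the titles. The test was limma's (version 3.58.1, R 4.3.3), with lmFit and eBayes (two-sided, 4 group means, no block, Benjamini-Hochberg over 19505 genes, threshold 0.05), on 16 arrays and on 14 without vehicle pool 3, and the code was tested on simulated data. Errors of differences are standard errors. Members, lists and the 14-array set were chosen with earlier results of these data known. The number of arrays limits the precision.

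Named with values were members past the threshold (up to 12 per comparison by p), the 5 highest and 5 lowest means, and the 5 smallest p of each odor comparison; others are named for their place on the chromosome or their call, after their values were seen. Alternatives were the pool of mice or the replicate number as a block, array centring, quantile normalization, a filter on low values, a trended robust prior, all probe sets and each array left out.

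The fractions of a pool come from the same mice, so pool was the pairing block. Deviations from group means correlated between the fractions at 0.158, 0.147, 0.253 and 0.127 in odor pools 1 to 4 and at -0.420, -0.0645, -0.754 and -0.333 in vehicle pools.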

Additional observations from a re-analysis of the deposited data

Results flagged for a closer look

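The groups of 4 libraries examined were 92 (S100a5, Omp and 21 receptors in 4 groups each). Of these, 15 held a library far from the other 3 by Dixon's gap-to-range rule. Chance gives about 1 group in 20 if groups are independent. These groups share the same libraries, so that rate is no benchmark for the 15. Of the 15, 12 were libraries of vehicle pool 3. The 21 receptors were chosen by p in fits without that pool, which favors genes whose other pools lie close together. The share of vehicle pool 3 among the 15 is therefore not read as a test of that pool.

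In the vehicle library of pool 3 titled GFP-, Olfr101 was at 7.93, Olfr110 at 7.55 and Olfr112 at 10.7, each below the other 3, and S100a5 was low as well at 14.99. In the same library Olfr99 was at 14.3 and Olfr134 at 9.08, each above the other 3. In the library of that pool titled GFP+, Olfr116 was at 6.70, Olfr117 at 9.75, Olfr127 at 6.20, Olfr128 at 4.56, Olfr55 at 13.9 and Olfr99 at 6.30, all below the other 3 vehicle libraries titled GFP+.

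The other 3 were odor libraries titled GFP+. Olfr127 was at 7.78 in replicate 2, against 8.78 to 8.82 in the others. Olfr135 was at 7.15 in replicate 1, against 7.76 to 7.83. Olfr94 was at 8.32 in replicate 3, against 7.98 to 8.01.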

How the results depend on the processing

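The count of members that differed between fractions depended on vehicle pool 3. On all 16 arrays, 20 were called in odor; without vehicle pool 3 there were 31, with the pool of mice as a replicate block 0, and with each array left out in turn 0 to 27. In vehicle 0 were called on 16 arrays, 26 without pool 3, and 0 to 10 with each array left out. On the 14 arrays, leaving out each array gave 26 to 32 in odor and 17 to 28 in vehicle. With the block there were 31 in odor and 25 in vehicle, with 7 calls of 6 members changed; it changed no call of a receptor named for its p on those arrays, and on the 16 arrays all 11 called among the 12 named in odor lost theirs. With trend and robust priors 14 members were called in odor on 16 arrays. No member changed direction among the calls of the 14 arrays under any alternative in which it was fitted, and no member was called for odor against vehicle or for the difference of fraction differences under any alternative run for it; the replicate number shared by odor and vehicle pools was run as a block for odor against vehicle alone. Odor and vehicle pools are different mice, and their same-numbered deviations correlated between -0.198 and 0.432. Quantile normalization gave 33 members in odor and 27 in vehicle on the 14 arrays. The shares of all genes called under these alternatives are not given here, so the counts describe the processing alone. The filter on low values removed 2 members. Background may limit many members, which was not tested. Means of 28 of the 49 were below the 95th percentile of the negative controls, and Olfr108, Olfr127, Olfr128 and Olfr761 had a fraction below their median. Also, the deposited scale has no stated link to transcript number.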
